A study of Mus musculus with 2 samples.

Results

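Oligodendrocyte lineage transcription factors are described here as 10 genes, Olig1, Olig2, Sox10, Sox8, Sox6, Nkx2-2, Nkx6-2, Myrf, Zfp488 and Zeb2, taken by name from 31053 gene lines in each table. All 10 members were found in both tables. Single-cell RNA-seq of mouse optic nerve cells gave 1 uninjured and 1 injured library, and the tables hold the barcodes that the study had assigned to oligodendrocyte precursor cells (OPC), newly formed oligodendrocytes (NFO) and oligodendrocytes. Both libraries came from Wildtype 129S1/SvlmJ mice, with 5 nerves from pooled males and females in each. The injured nerves had undergone optic nerve crush (ONC), a crush injury to the axons of retinal ganglion cells, at 8 weeks of age and were collected 2 weeks later. The labels give the age of both libraries as 56 days, and the treatment field of both names the crush, so the uninjured library was assigned by its title. Each condition was 1 pool of nerves in 1 library, so no difference between conditions has a replicate check, no significance test was run, and the 95% intervals given cover the error of counting UMIs and nothing else.

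These factors act in sequence as a precursor becomes a myelinating cell. Olig2 and Sox10 mark the whole lineage, Sox6 holds precursors back from maturing, and Nkx2-2, Zfp488, Zeb2 and Myrf promote the exit from the precursor state and the switch to myelin genes. Nkx6-2 appears late, in cells that build myelin, and Sox8 is a close relative of Sox10 with overlapping functions. After injury to white matter, OPCs can divide and mature again, and the same factors are known to act in that process.

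By name, the members were placed on GRCm38 (the same assembly as the mm10 build of the tables) with the GENCODE vM21 annotation. The paired bHLH genes lie close together on the plus strand of chromosome 16, Olig2 at chr16:91225457-91228677 and Olig1 at chr16:91269772-91271933. The other members are on the minus strand. The Sox genes lie at chr15:79154908-79165240 (Sox10), chr17:25565892-25570686 (Sox8) and chr7:115470872-116038796 (Sox6). The homeodomain genes lie at chr2:147177546-147194243 (Nkx2-2) and chr7:139579376-139582797 (Nkx6-2). Myrf lies at chr19:10208272-10240748, Zfp488 at chr14:33967070-33978764 and Zeb2 at chr2:44983632-45117395. Genes on the opposite strand overlap some members. Zeb2os (131 UMIs over both libraries) overlaps Zeb2, Nkx2-2os (27 UMIs) and 6430503K07Rik (94 UMIs) overlap Nkx2-2, and Inpp5a (165 UMIs) overlaps Nkx6-2. Whether the counting used strand is not given in the sources used here, so reads from such pairs may not be separable.

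Sox6 and Nkx6-2 were at the opposite ends of the lineage in these libraries, and the sequence before their starts is shown for that reason. RefSeq promoters (GRCm38.p6) were given for 7 members with 15 starts. Capitals mark a SOX motif, spelled ACAAAG or ACAATG and searched on both strands, and no printed base lies in an annotated exon. The Nkx6-2 stretch is chr7:139582798-139583047 on the minus strand, 250 bases that end at the start of transcription. The stretch at Sox6 start 1 is chr7:116038797-116038994, 198 bases on the minus strand that stop 52 bases short of the start, where an annotated exon begins. The stretch at Sox6 start 5, counted along the gene, is chr7:115824711-115824960, 250 bases on the minus strand inside the gene.
Nkx6-2: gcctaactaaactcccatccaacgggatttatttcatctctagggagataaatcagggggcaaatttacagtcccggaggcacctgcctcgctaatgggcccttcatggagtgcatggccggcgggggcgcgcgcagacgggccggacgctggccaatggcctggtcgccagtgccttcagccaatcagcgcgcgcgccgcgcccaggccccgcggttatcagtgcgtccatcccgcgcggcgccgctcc
Sox6, start 1: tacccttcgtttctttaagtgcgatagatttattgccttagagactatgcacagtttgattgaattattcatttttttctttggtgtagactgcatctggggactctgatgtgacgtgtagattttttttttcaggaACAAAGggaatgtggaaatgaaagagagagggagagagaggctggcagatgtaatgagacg
Sox6, start 5: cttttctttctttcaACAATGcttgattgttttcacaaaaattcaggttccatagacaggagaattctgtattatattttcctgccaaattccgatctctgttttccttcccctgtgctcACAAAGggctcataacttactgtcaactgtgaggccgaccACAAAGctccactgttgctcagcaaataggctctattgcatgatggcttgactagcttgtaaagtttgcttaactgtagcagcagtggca
A SOX motif stood in the 250 bases before 5 of the 6 Sox6 starts, and the only Nkx6-2 start held none. Among all 32851 promoter windows of that length, 25.2% held a SOX motif. At Sox6 start 1 the match began 113 bases before the start, and at start 5 the 3 matches began 235, 130 and 90 bases before it. The only Olig2 start and 1 of 4 Zeb2 starts also held a match, and those of Sox8, Nkx2-2 and Zfp488 held none. An E-box spelled CAGCTG, the kind of site that bHLH factors bind, stood before 1 of the 15 starts, a Sox6 start, against 13.0% of all windows. These are matches of letters and not measured binding.

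Levels are given as CPM, the UMIs of a gene per 1000000 UMIs summed over the barcodes of a type in a library. The uninjured library held 959 barcodes and 4414834 UMIs, with a median of 2782 UMIs per barcode. The injured library held 410 barcodes and 2771797 UMIs, with a median of 1304.5. No barcode sequence was shared between the libraries. The study typed cells with Pdgfra, Fyn and Mag among other markers, so the fit of these 3 to the labels was set in advance. Pdgfra, the OPC receptor, was at 2142 and 961 CPM in OPCs of the uninjured and injured library and at 2.892 and 1.303 CPM in oligodendrocytes. Fyn was highest in NFOs (1105 and 2129 CPM), and Mag, a myelin protein gene, was highest in oligodendrocytes (4043 and 3574 CPM). Lists of 9 OPC and 9 NFO markers separated NFOs less well. They summed to 6682 and 6587 CPM in uninjured NFOs and to 4445 and 9464 CPM in injured ones. Itpr2 and Neu4 were higher in uninjured OPCs than NFOs (414 against 266 and 946 against 839 CPM). Enpp6 was higher in uninjured oligodendrocytes than NFOs (524 against 404 CPM), and the other NFO markers were highest in NFOs there. Many barcodes held little Malat1, a noncoding RNA that stays in the nucleus, and a barcode is called Malat1-poor here when Malat1 gave under 0.5% of its UMIs. Malat1-poor barcodes made up 28 of 44 uninjured and 77 of 100 injured NFOs, 48 of 857 uninjured and 133 of 293 injured oligodendrocytes, and 0 of 58 uninjured and 5 of 17 injured OPCs. The injured Malat1-poor oligodendrocytes held a median of 774 UMIs, against 9803.5 in the Malat1-rich ones. In Malat1-poor NFOs the OPC and NFO markers summed to 8399 and 3360 CPM without injury and to 3540 and 7242 CPM after it. The injured OPCs were under 20 barcodes, so their values stand side by side with the uninjured ones and carry no call. In the other comparisons a gene counts as tested if it held at least 50 UMIs over both groups, and as higher or lower if its CPM differed at least 1.5-fold. The 10 immune cell markers moved with injury in each type, from 35.0 to 162 CPM in OPCs, 10.6 to 475 CPM in NFOs and 21.0 to 216 CPM in oligodendrocytes in sum, with 5, 9 and 0 of the 10 at 0 without injury and 2, 1 and 0 after it.

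The summed level of the members was highest in OPCs. Olig1 was the most abundant single member in OPCs and NFOs of both libraries, so these sums lean on that gene. The 10 genes summed to 6047 CPM (5684 to 6427) in uninjured OPCs, 4812 CPM (4379 to 5277) in NFOs and 3141 CPM (3088 to 3196) in oligodendrocytes. In the injured library the sums were 6233 CPM (5790.0 to 6701), 3717 CPM (3519 to 3925) and 3152 CPM (3080.3 to 3226). Thus the sums of OPCs and of oligodendrocytes overlapped between the libraries, and that of NFOs was lower after injury. In Malat1-rich NFOs the sums overlapped, at 4485 CPM (3980 to 5036) without injury and 4150 CPM (3890 to 4423) after it. In Malat1-poor NFOs they were 5500 CPM (4698 to 6401) and 2916 CPM (2623 to 3234). A barcode held UMIs of a median of 5 members in uninjured OPCs and 5 in uninjured oligodendrocytes, against 2 in injured oligodendrocytes. With each barcode thinned to 500 UMIs, the medians were 2 members in OPCs of both libraries and 1 in oligodendrocytes of both libraries.

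**Figure D1:**
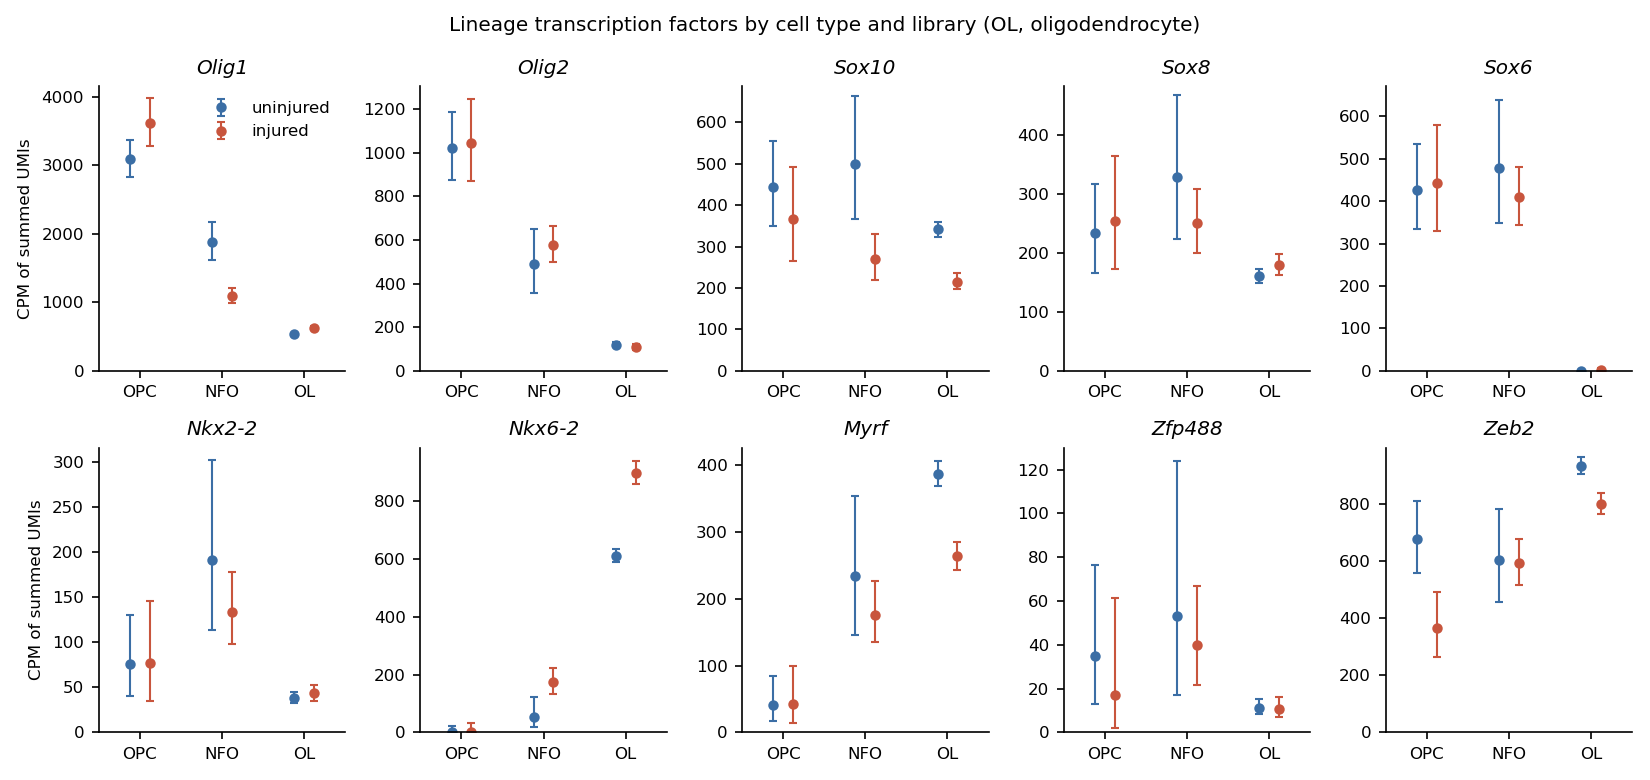
CPM of summed UMIs (vertical axis, from 0, with its own scale for each gene) of the 10 members in OPCs, NFOs and oligodendrocytes (OL) of the uninjured and injured library, with exact 95% Poisson intervals as bars. Olig1 and Olig2 stepped down from OPC to OL, Sox6 was near 0 in OL, and Nkx6-2 was at 0 in OPC and reached 612 and 899.9 CPM in OL.

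In the uninjured lineage Olig1 and Olig2 were highest in OPCs, and Nkx6-2, Myrf and Zeb2 in oligodendrocytes. Sox6, Sox10, Sox8, Nkx2-2 and Zfp488 had their highest level in NFOs, with intervals that overlapped those of OPCs. From OPC to oligodendrocyte, 10 members were tested, of which 2 were at least 1.5-fold higher and 5 at least 1.5-fold lower. Over all genes tested, 27.5% were higher and 31% lower by that rule. The median ratio of the members was 0.596, beside 0.936 over all genes tested.

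Olig1, a bHLH factor linked to maturation and remyelination, was at 3093 CPM (2836 to 3368) in uninjured OPCs, 1880.4 CPM (1614 to 2179) in NFOs and 533 CPM (511 to 556) in oligodendrocytes. Olig2, which specifies the lineage, was at 1021 CPM (876 to 1184), 489 CPM (358 to 652) and 121 CPM (111 to 132). No intervals of neighbouring types overlapped for either gene. Olig1 was 5.80-fold lower in oligodendrocytes than in OPCs (5.27 to 6.38), and Olig2 8.44-fold lower (7.07 to 10.0). The step from OPC to NFO was the less certain one. There 6 members were tested, 0 were higher and 2 were lower, Olig1 and Olig2, beside 33.9% and 21.9% of all genes. Weighting each barcode equally turned the Olig1 ratio of NFO over OPC from 0.608 to 1.02, and thinning to 500 UMIs turned it to 1.11.

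Sox6, a SoxD factor of precursors, fell furthest. It was at 426 CPM (334 to 536) in uninjured OPCs and 478 CPM (349 to 640) in NFOs, and 4 UMIs were found in 857 oligodendrocytes (0.964 CPM, 0.263 to 2.47). The injured library gave 442 CPM (330.2 to 580) in OPCs, 409 CPM (345 to 482) in NFOs and 7 UMIs in 293 oligodendrocytes (3.04 CPM, 1.22 to 6.26). Thus the order was the same in both libraries, with OPC and NFO overlapping and oligodendrocytes far below. The uninjured oligodendrocytes were 442-fold below OPCs (165 to 1665). A UMI of Sox6 was found in 58.6% of uninjured OPCs (34 of 58) and in 0.467% of uninjured oligodendrocytes (4 of 857), at median depths of 2290 and 3060 UMIs. In injured oligodendrocytes the share was 2.39% (0.966 to 4.86), at a median depth of 1268 UMIs. The part of free RNA in these few UMIs was not tested.

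Nkx6-2, a homeodomain factor of myelinating cells, ran the other way. No UMI was found in 58 uninjured or 17 injured OPCs, which allows a level of up to 17.5 and 25.5 CPM (3 UMIs over the group). It was at 53.1 CPM (17.2 to 124, on 5 UMIs) in uninjured NFOs and 612 CPM (589 to 636) in uninjured oligodendrocytes. Uninjured oligodendrocytes were thus at least 35.0-fold higher than OPCs. In injured NFOs Nkx6-2 was at 173 CPM (133 to 223) and in injured oligodendrocytes at 899.9 CPM (862 to 940). The share of oligodendrocytes with a UMI was 67.0% without injury and 51.5% after it. With barcodes thinned to 500 UMIs, those shares were 23.4% (20.6 to 26.4) and 20.1% (15.7 to 25.2), which overlapped.

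Myrf, a membrane-bound factor that is cleaved and then activates myelin genes, also rose along the lineage. It was at 40.9 CPM (16.4 to 84.2) in uninjured OPCs, 234 CPM (146 to 354) in NFOs and 387 CPM (369 to 407) in oligodendrocytes. The difference between oligodendrocytes and OPCs was 9.48-fold (4.59 to 23.6), on 7 UMIs in OPCs. In the injured library the levels were 42.5 CPM (13.8 to 99.2), 176 CPM (135 to 226) and 264 CPM (243 to 285). OPC was below NFO in each library and NFO below oligodendrocytes, with no overlap of neighbouring intervals. In the injured library the ratio of oligodendrocytes over NFOs, 1.496, turned to 0.809 with each barcode counted equally and to 0.525 after thinning to 500 UMIs.

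Nkx2-2, which times the start of differentiation, had its highest level in NFOs. Its levels were 75.9 CPM (40.4 to 129.8) in uninjured OPCs, 191 CPM (113 to 302) in NFOs and 38.1 CPM (32.4 to 44.5) in oligodendrocytes, and 76.5, 134 and 43.4 CPM in the injured library. The OPC and NFO intervals overlapped in both libraries, and in each the oligodendrocytes lay below NFOs, 5.02-fold (2.90 to 8.20) without injury and 3.08-fold (2.13 to 4.39) with it. Zfp488, a zinc finger partner of Olig2, was the least covered member. It rested on 6 UMIs in uninjured OPCs (35.0 CPM), 5 in NFOs (53.1 CPM) and 47 in oligodendrocytes (11.3 CPM), and on 2 (17.01 CPM), 14 (39.8 CPM) and 25 UMIs (10.9 CPM) in the injured library. In each library its NFO interval lay above that of oligodendrocytes.

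Sox10 and Sox8 form the SoxE pair. Sox10, which is kept from OPC to mature cell and activates myelin genes, was at 444 CPM (349 to 555) in uninjured OPCs, 499 CPM (367 to 664) in NFOs and 341 CPM (324 to 359.8) in oligodendrocytes. Sox8 was at 233 CPM (167 to 318), 329 CPM (224 to 467) and 161 CPM (149 to 174). OPC and NFO overlapped for both genes, and oligodendrocytes were lower than OPCs by 1.299-fold for Sox10 (1.02 to 1.64) and by 1.45-fold for Sox8 (1.03 to 2.00). Zeb2, a zinc finger homeobox factor that frees precursors from inhibitory signals, was at 677 CPM (559 to 812) in OPCs, 606 CPM (459 to 785) in NFOs and 935 CPM (906 to 965) in oligodendrocytes. Thus Zeb2 was highest in oligodendrocytes, 1.38-fold above OPCs (1.15 to 1.68).

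Oligodendrocytes were also set against NFOs in each library. Without injury, 9 members were tested, 3 were at least 1.5-fold higher in oligodendrocytes (Nkx6-2, Myrf, Zeb2) and 5 at least 1.5-fold lower (Olig1, Olig2, Sox8, Nkx2-2, Zfp488), against 32.9% and 30.1% of all genes. Sox6 missed the minimum with 49 UMIs and was 496-fold lower (181 to 1899). In the injured library, 9 members were tested, 1 was higher (Nkx6-2) and 4 were lower (Olig1, Olig2, Sox6, Nkx2-2), against 28.5% and 26.2% of all genes, so the share of members past the fold there was near that of all genes. The Sox8 call did not hold when each barcode counted equally: the uninjured ratio of oligodendrocytes over NFOs went from 0.489 to 1.12, and to 1.42 after thinning to 500 UMIs.

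The comparison of injured with uninjured NFOs takes the barcodes that the study labelled NFO. These differed in their markers. OPC and NFO markers summed to 6682 and 6587 CPM in the uninjured ones and to 4445 and 9464 CPM in the injured ones. The part of this difference in the ratios below was not tested. In NFOs 9 members were tested, 1 was at least 1.5-fold higher after injury (Nkx6-2) and 2 were at least 1.5-fold lower (Olig1, Sox10). Over all genes tested, 27.8% were higher and 10.9% lower. The median ratio of the 9 members was 0.759, beside 1.15 over all genes tested.

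Olig1 in NFOs was at 1880.4 CPM without injury and 1094 CPM (988 to 1209) after it, a ratio of 0.582 (0.486 to 0.699). Sox10 was at 499 CPM and 270.0 CPM (218 to 330.1), a ratio of 0.541 (0.377 to 0.784). The ratios of both stayed below 1 under all 8 alternatives that gave a value. Their levels moved differently with Malat1. In Malat1-rich NFOs, of which there were 16 and 23, Olig1 was at 957 CPM (732 to 1229) and 946 CPM (824 to 1081), which overlapped. In Malat1-poor NFOs Olig1 was at 3821 CPM (3157 to 4583) without injury and 1369 CPM (1170.4 to 1592) after it. Sox10 was at 565 CPM (395 to 782) and 315 CPM (247 to 397) in the Malat1-rich NFOs, and at 362 CPM (181 to 648) and 186 CPM (118 to 279.6) in the Malat1-poor ones. The part of Malat1 content in these differences was not tested. Under 8000 UMIs per barcode the Sox10 ratio was 0.319, and without barcodes that held at least 3 immune markers the ratios were 0.604 for Olig1 and 0.567 for Sox10. Where a barcode held no immune cell or macrophage marker, Olig1 was at 1959 CPM (1669 to 2285) and 1996 CPM (1481 to 2631). Sox10 was at 568 CPM (418 to 756) and 240 CPM (87.9 to 521) in these 40 uninjured and 12 injured barcodes. In the 4 and 88 barcodes with such a marker, Olig1 was at 1312 CPM (734 to 2163) and 1025 CPM (918 to 1141). Each pair of intervals overlapped, and the part of immune RNA was not tested.

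Nkx6-2 in NFOs was at 53.1 CPM without injury and 173 CPM after it, a ratio of 3.26 (1.32 to 10.4), and the ratio stayed above 1 under the 7 alternatives that gave a value. It was 1.86 under 8000 UMIs per barcode and 6.65 without the barcode with most UMIs. A UMI was found in 2 of 44 uninjured NFOs (4.55%, 0.555 to 15.5) and in 25 of 100 injured ones (25%, 16.9 to 34.7). With barcodes thinned to 500 UMIs, the shares were 0% (0 of 42, which allows a share of up to 7.14%) and 8.00% (3.52 to 15.2). In injured OPCs 0 of 17 barcodes held a UMI, at a median depth of 4120 UMIs against 1258.5 in injured NFOs. Where a barcode held no immune cell or macrophage marker, Nkx6-2 was at 24.2 CPM (2.93 to 87.4) and 39.9 CPM (1.01 to 222). These levels rested on 2 and 1 UMIs in 40 uninjured and 12 injured NFOs. In the 4 and 88 NFOs with such a marker it was at 262 CPM (54.1 to 767) and 184 CPM (140 to 236). Both pairs of intervals overlapped. The parts of free RNA and of immune RNA were not tested.

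The other members of NFOs had intervals that held 1. The ratios were 1.18 for Olig2 (0.854 to 1.66), 0.759 for Sox8 (0.499 to 1.18), 0.856 for Sox6 (0.609 to 1.22), 0.699 for Nkx2-2 (0.398 to 1.28), 0.754 for Myrf (0.457 to 1.29) and 0.981 for Zeb2 (0.729 to 1.34). Zfp488 was under the minimum, with 5 and 14 UMIs. An interval that holds 1 does not show that a level was the same. With each barcode counted equally the ratio was 1.47 for Myrf and 1.43 for Zeb2, and the mean NE was higher after injury for both, 0.465 against 0.359 for Myrf and 0.928 against 0.668 for Zeb2. In Malat1-poor NFOs the ratios were 3.94 for Myrf, 3.69 for Sox6 and 1.97 for Zeb2, on 17, 16 and 36 UMIs.

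Among NFOs, Sox6 and Nkx6-2 were found in the same barcode only in the injured library. Of the oligodendrocytes, 2 of 857 uninjured and 4 of 293 injured ones held both. Of the 100 injured NFOs, 14 held a UMI of Sox6 alone, 15 of Nkx6-2 alone, 10 of both and 61 of neither. Of the 44 uninjured NFOs, 12 held Sox6 alone, 2 Nkx6-2 alone, 0 both and 30 neither. The 10 barcodes with both were all Malat1-rich and deep, with a median of 22084 UMIs (3214 to 29396), and they held 42 of the 61 Nkx6-2 UMIs and 115 of the 144 Sox6 UMIs of injured NFOs. Scrublet called 1 of the 10 a doublet. The deepest uninjured NFO with Sox6 held 13369 UMIs, so the libraries were not matched in depth here, and the part of depth in the overlap was not tested.

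**Figure D2:**
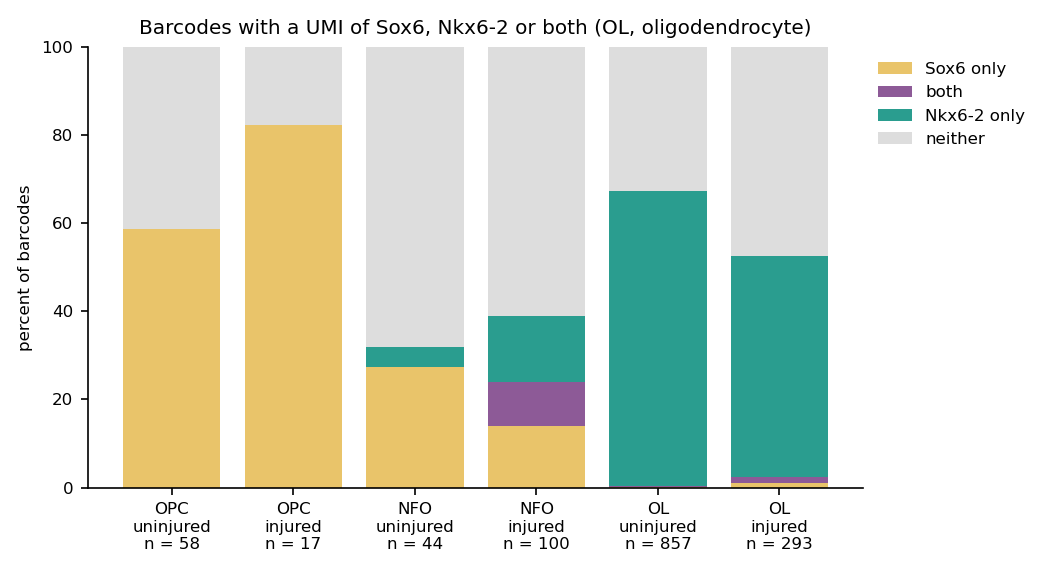
Percent of barcodes (vertical axis, from 0 to 100) with a UMI of Sox6 alone, of Nkx6-2 alone, of both or of neither, for OPCs, NFOs and oligodendrocytes (OL) of each library, with the number of barcodes below each bar. A UMI of Sox6 was found in 58.6% of uninjured OPCs, one of Nkx6-2 in 67.0% of uninjured OL, and barcodes with both made up 10 of 100 injured NFOs and 0 of 44 uninjured NFOs.

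In oligodendrocytes, Sox10 and Myrf were lower after injury, and no member passed the fold upward. Here 9 members were tested, 0 were at least 1.5-fold higher and 1 was at least 1.5-fold lower (Sox10), against 15.6% and 12% of all genes. In the Malat1-rich oligodendrocytes, 9 were tested, 1 was higher (Nkx6-2) and 1 lower (Sox10), against 16.7% and 11.3%. The median ratio of the members was 0.959 in all oligodendrocytes and 0.998 in the Malat1-rich ones, beside 1.03 and 1.05 over all genes tested.

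Sox10 was at 341 CPM in uninjured oligodendrocytes and 215 CPM (197 to 235) in injured ones, a ratio of 0.631 (0.568 to 0.699). The deposited normalized expression (NE, on a natural log scale) averaged 1.05 per uninjured barcode and 0.445 per injured barcode. Myrf was at 387 CPM and 264 CPM (243 to 285), a ratio of 0.681 (0.619 to 0.748), just short of the fold, and its mean NE was 1.24 and 0.581. In the Malat1-rich barcodes the ratios were 0.664 (0.598 to 0.736) for Sox10 and 0.705 (0.641 to 0.775) for Myrf. Under 13 alternatives the Sox10 ratio ran from 0.0684 to 0.668 and the Myrf ratio from 0.289 to 0.724, below 1 throughout. With each barcode thinned to 500 UMIs, a UMI of Sox10 was found in 14.3% (12.0 to 16.9) of uninjured and 4.44% (2.38 to 7.47) of injured oligodendrocytes. For Myrf these shares were 20.9% (18.2 to 23.8) and 6.48% (3.95 to 9.94), so neither pair of intervals overlapped. With each barcode counted equally the ratios were 0.320 and 0.338, and under 8000 UMIs 0.254 and 0.473. Without barcodes that held at least 3 immune markers they were 0.610 and 0.676. With a Malat1 minimum of 1%, the Sox10 ratio was 0.668 and just missed the fold.

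Nkx6-2 was at 612 CPM without injury and 899.9 CPM after it, a ratio of 1.47 (1.39 to 1.56), and Olig1 at 533 and 626 CPM (594 to 659), a ratio of 1.17 (1.10 to 1.25). Both increases rested on the deepest barcodes. With each barcode counted equally the ratios were 0.965 and 0.932, and the mean NE was lower after injury for both, 1.18 against 1.38 for Nkx6-2 and 1.09 against 1.28 for Olig1. Among barcodes under 8000 UMIs the ratios were 0.870 and 0.818. Olig2 went from 121 to 109 CPM (0.898, 0.768 to 1.05), and its ratio was below 1 under 13 alternatives, from 0.126 to 0.964. Zeb2 went from 935 to 801 CPM, a ratio of 0.857 (0.811 to 0.906).

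Sox8, the relative of Sox10, was at 161 and 180.3 CPM, a ratio of 1.12 (0.988 to 1.27) that differed in direction from that of Sox10. With each barcode counted equally it was 0.462. Nkx2-2 was at 38.1 and 43.4 CPM (1.14, 0.879 to 1.47), and Zfp488 at 11.3 and 10.9 CPM (0.959, 0.565 to 1.59). Sox6, with 11 UMIs in all, was not tested in oligodendrocytes.

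**Figure D3:**
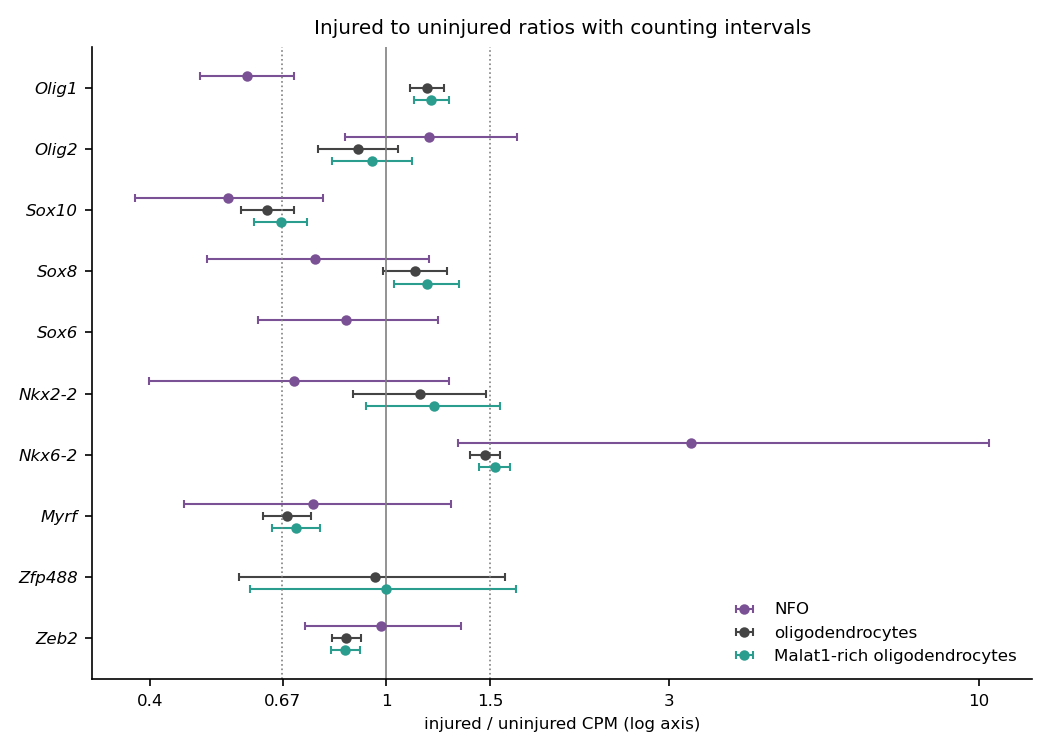
Ratio of injured to uninjured CPM (horizontal axis, log scale) of each member in NFOs, oligodendrocytes and Malat1-rich oligodendrocytes, with exact conditional 95% intervals, a solid line at 1 and dotted lines at 1.5-fold. Genes under 50 UMIs over both groups are left out. Sox10 lay left of 1 in the 3 comparisons, Nkx6-2 lay right of it, and Olig1 lay left in NFOs (0.582) and right in oligodendrocytes (1.17).

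Depth bands within the Malat1-rich oligodendrocytes separated these members. Sox10 in the uninjured library was level across the bands, at 327 CPM (264 to 401) under 2000 UMIs, 342 CPM (311 to 374) from 2000 to under 8000 UMIs and 343 CPM (320.1 to 367) at 8000 UMIs or more. In the injured library it was at 117 CPM (32.0 to 301), 137 CPM (82.3 to 213) and 235 CPM (214 to 257), below the uninjured value in the 3 bands, with an overlap only in the shallowest. Nkx6-2 was at 493, 489 and 694 CPM without injury and at 469.9, 496 and 970.5 CPM after it. Its intervals overlapped in the lower 2 bands and did not at 8000 UMIs or more (661 to 728 against 928 to 1015). The barcodes in that band held a median of 11054 UMIs without injury and 22473 after it.

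Myrf fell with depth in the uninjured library, from 567 to 441 to 344 CPM, and was at 117, 388 and 271 CPM after injury. It was lower after injury without overlap under 2000 UMIs (on 4 injured UMIs) and at 8000 UMIs or more, and overlapped between. Olig1 was at 352, 527 and 555 CPM without injury and 264, 367 and 658 CPM after it, lower in the middle band (489 to 567 against 273 to 482) and higher in the deepest (525 to 585 against 623 to 695). Olig2 was at 127, 116 and 121 CPM without injury and 29.4, 57.5 and 118.9 CPM after it, with overlapping intervals in each band. Zeb2 fell with depth in each library, from 1426 to 826 CPM without injury and from 1351 to 764 CPM after it. Sox8 was lower after injury under 2000 UMIs (313 against 58.7 CPM, with intervals of 252 to 386 and 7.11 to 212, on 2 injured UMIs), overlapped between, and was higher at 8000 UMIs or more (139 against 186 CPM, with intervals of 124 to 154 and 168 to 206).

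**Figure D4:**
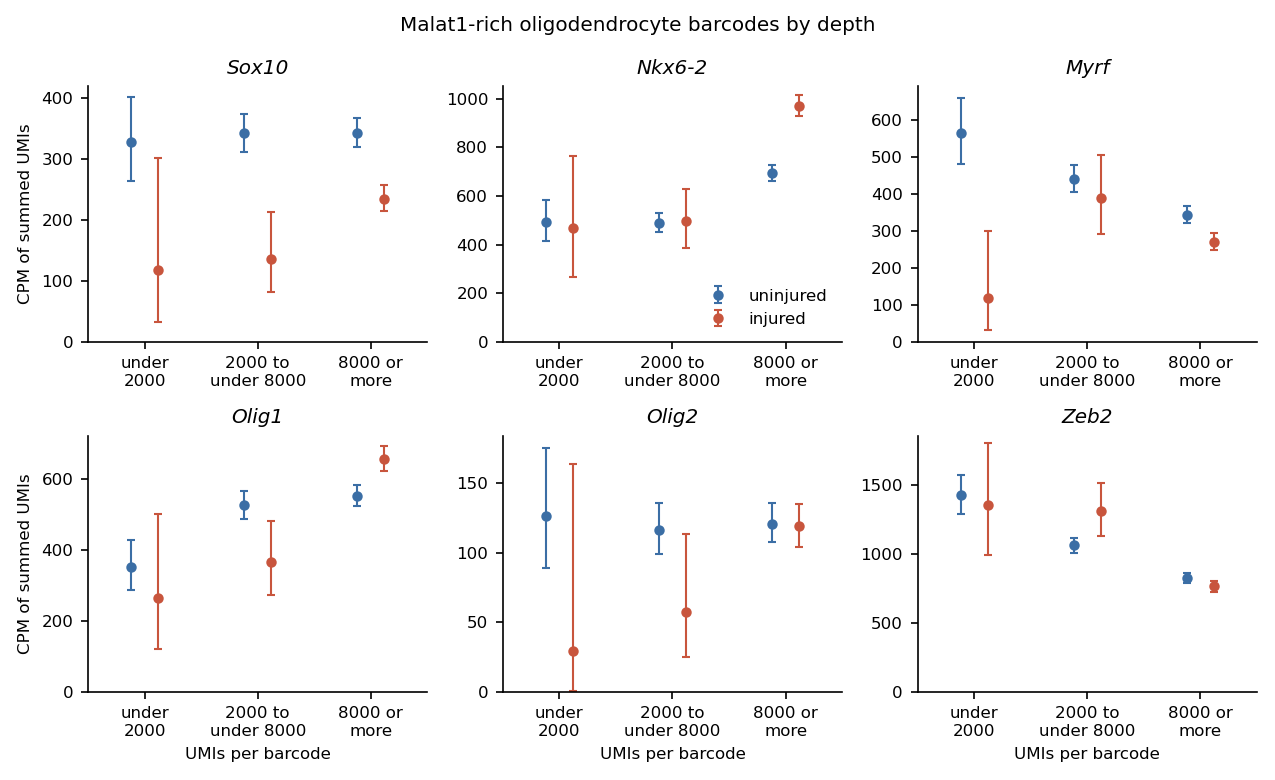
CPM of summed UMIs (vertical axis, from 0) of 6 members in Malat1-rich oligodendrocytes, divided by UMIs per barcode (horizontal axis), with exact 95% Poisson intervals; the bands hold 266, 340 and 203 uninjured and 42, 34 and 84 injured barcodes. Sox10 was lower after injury in each band, and Nkx6-2 differed in the deepest band, at 694 and 970.5 CPM.

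The Malat1-poor oligodendrocytes of the injured library held little of most members. Against the Malat1-rich barcodes of the same library, 8 members were tested, 0 were at least 1.5-fold higher and 6 at least 1.5-fold lower. Over all genes, 7.37% were higher and 62.5% lower, so low levels there were common to most genes tested. In the uninjured library 8 members were tested, 1 was higher (Olig2) and 2 lower (Myrf, Zeb2), against 18.5% and 44.4% of all genes.

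Sox10 gave 3 UMIs in the 133 injured Malat1-poor barcodes, 23.4 CPM (4.83 to 68.4), against 227 CPM (207 to 248) in the Malat1-rich ones. In the uninjured library it was at 342 CPM (219 to 509) and 341 CPM (324 to 359.9), which overlapped. Olig2 was likewise at 23.4 CPM (4.83 to 68.4) in the injured Malat1-poor barcodes, against 114 CPM (99.9 to 129) in the rich ones and 185 CPM (98.7 to 317) in the uninjured poor ones. Nkx2-2 gave no UMI, at least 1.96-fold below the Malat1-rich level of 45.99 CPM. Sox8 was at 39.0 CPM (12.7 to 91.1), Myrf at 46.8 CPM (17.2 to 102) and Nkx6-2 at 351 CPM (256 to 469.9), against 189, 276 and 932 CPM in the rich barcodes. Thus Sox10 and Nkx6-2 were lower in Malat1-poor than Malat1-rich barcodes after injury, and overlapped between them without injury.

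Olig1 and Zeb2 were the members kept in the injured Malat1-poor barcodes. Olig1 was at 499 CPM (385 to 638) there and 633 CPM (600.3 to 668) in the rich ones, a ratio of 0.789 (0.604 to 1.01). Zeb2 was at 695 CPM (558 to 855) and 808 CPM (770.3 to 846), a ratio of 0.860 (0.687 to 1.06). In the uninjured library Zeb2 was lower in the Malat1-poor barcodes, at 299 CPM (185 to 458) against 946 CPM (916 to 976). Macrophages also express Zeb2. The 10 immune cell markers summed to 1669.9 CPM in the injured Malat1-poor oligodendrocytes, with 0 of the 10 at 0, to 130.2 CPM in the rich ones and to 71.3 CPM in the uninjured poor ones, with 8 of the 10 at 0. The 10 macrophage and monocyte markers summed to 1303, 122 and 28.5 CPM. In the 20 injured Malat1-poor barcodes with no UMI of these markers, Zeb2 was at 774 CPM (442 to 1256), against 679 CPM (532 to 854) in the 113 with any, with overlapping intervals.

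**Figure D5:**
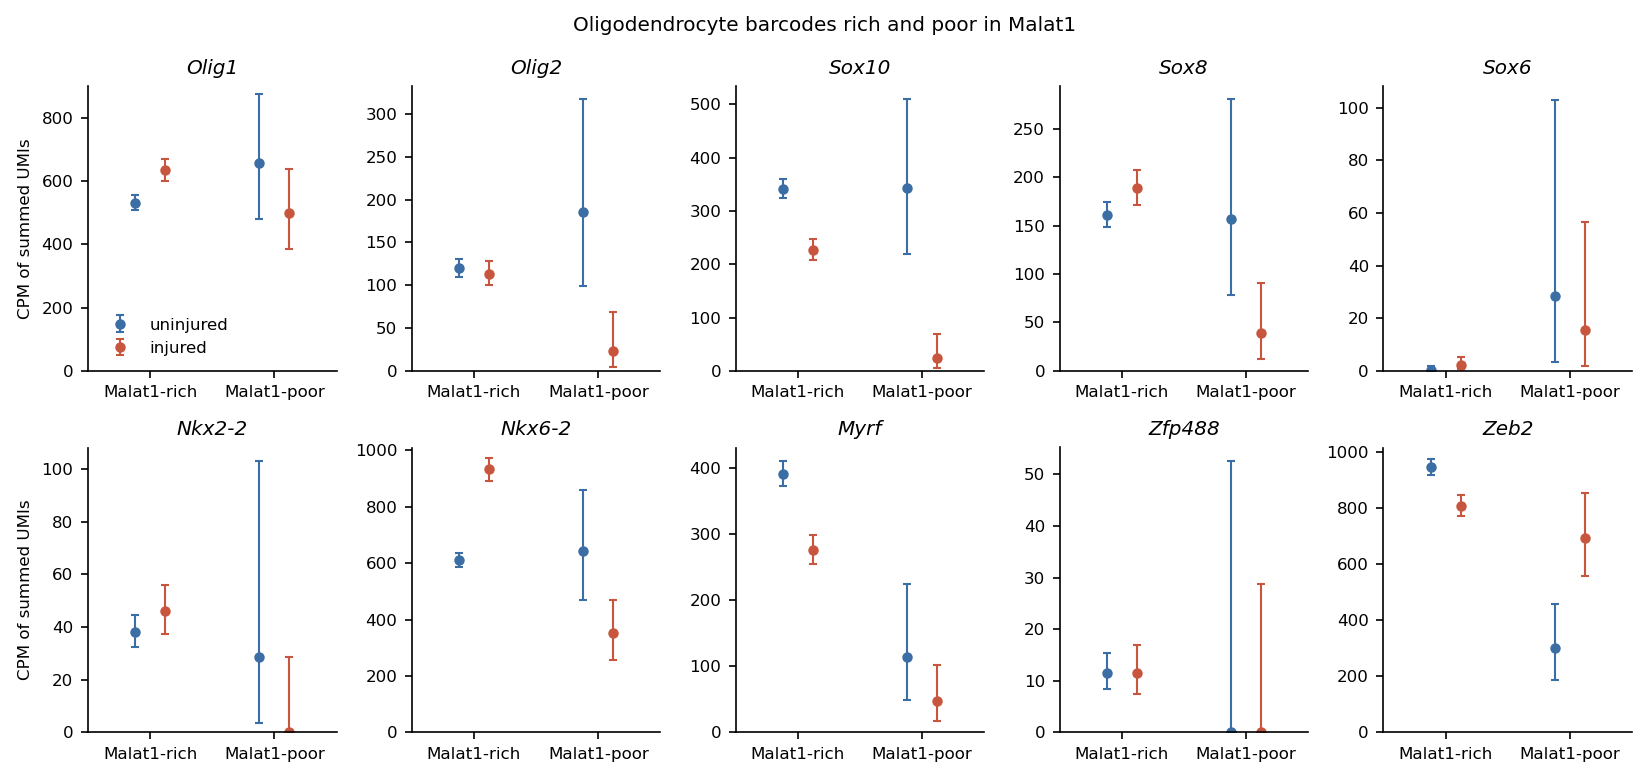
CPM of summed UMIs (vertical axis, from 0, with its own scale for each gene) of the members in Malat1-rich and Malat1-poor oligodendrocytes of each library, with exact 95% Poisson intervals. In the injured Malat1-poor barcodes Sox10 was at 23.4 CPM, against 342 CPM in the uninjured ones, and Zeb2 at 695 against 299 CPM.

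OPCs of the injured library are given side by side with the uninjured ones, on 17 barcodes against 58. Olig1 was at 3093 and 3623 CPM (3287 to 3983), Olig2 at 1021 and 1046 CPM (869 to 1248), Sox10 at 444 and 366 CPM (265 to 493), and Sox8 at 233 and 255 CPM (172 to 364). All 4 pairs of intervals overlapped. Zeb2 was at 677 and 366 CPM (265 to 493), where the intervals did not overlap (ratio 0.540, 0.371 to 0.773).

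Partners and targets of the members are given from lists of related genes, and their counts stand beside 27.8% higher and 10.9% lower over all genes in NFOs, and 15.6% and 12% in oligodendrocytes. The E proteins pair with Olig1 and Olig2, and of the 3 (Tcf3, Tcf4, Tcf12) 2 were tested in NFOs, with 0 higher and 2 lower after injury, Tcf4 at 0.633 (0.486 to 0.830) and Tcf12 at 0.660 (0.354 to 1.29). In oligodendrocytes 3 were tested, with 0 higher and 1 lower, Tcf12 at 0.624 (0.531 to 0.731). Of 13 other transcription factors of precursors and progenitors, 5 were tested in oligodendrocytes, with 3 higher and 0 lower. Sox4 went from 6.99 to 92.5 CPM, a ratio of 13.2 (8.95 to 20.2), and Sox9 from 3.86 to 15.6 CPM, a ratio of 4.06 (2.19 to 7.83), while Hes6 was at 1.52 (0.929 to 2.49). In NFOs 2 of the 13 were tested and both were higher, Sox4 at 1.96 (1.37 to 2.87) and Sox2 at 1.59 (1.05 to 2.52).

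Of 11 inhibitors of differentiation, 4 were tested in oligodendrocytes, with 1 higher (Id3, 2.09, 1.32 to 3.31) and 1 lower (Tcf7l2, 0.443, 0.234 to 0.789). In NFOs 1 was tested, Tcf7l2, which was at 382 and 418 CPM. Of 26 differentiation cofactors and chromatin regulators, 22 were tested in oligodendrocytes, with 2 higher and 2 lower, and 10 in NFOs, with 3 higher and 3 lower. Sirt2 was higher in NFOs (2.58, 2.20 to 3.05) and oligodendrocytes (1.58, 1.504 to 1.669), and Nfib lower in both (0.438, 0.251 to 0.781, and 0.526, 0.460 to 0.600). Of 15 stage genes that the factors act on, 9 were tested in NFOs, with 6 higher and 2 lower, and 12 in oligodendrocytes, with 1 higher and 2 lower. The list medians there were 1.62 and 0.808. In NFOs Enpp6 was at 2.96 (2.12 to 4.24) and Opalin at 4.46 (2.29 to 9.94), with Gpr17 at 0.646 (0.517 to 0.812). In oligodendrocytes the gap junction gene Gjb1 was at 2.10 (1.96 to 2.26) and Opalin at 0.630 (0.595 to 0.667).

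The genes most like each member over the 6 groups of type and library were ranked among 6611 genes by Pearson's r of log2(CPM + 10). With 6 points that share 2 libraries and differ in depth, the 3 nearest genes of every member had an r between 0.969 and 0.998. Nearest to Sox6 were Chd3, Tnr and Bex2, and to Nkx6-2 were Fbxo36, Agps and Cldn11, the last a tight junction gene of myelin. Nearest to Olig1 were Tmx1, Minpp1 and Ctxn1, to Olig2 Dpysl3, Ddx50 and Ssr2, and to Nkx2-2 Caml, Pak4 and Sf3b6. Nearest to Sox10 were Leng8, Oxa1l and Sgk3, to Sox8 Gtf2i, Gnl3 and Zfp821, and to Myrf Eml1, Rgmb and Nde1. Nearest to Zeb2 were Hdac5, Rcor3 and Faah, and to Zfp488 Klhdc2, Pofut2 and Csk.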

How the data were processed

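The authors aligned and counted reads with Cell Ranger 1.3 on mm10, after bcl2fastq 2.17.1.14, and kept cells with at most 20% mitochondrial expression, at least 200 genes and at most 150000 UMIs, then drew equal cell numbers from both libraries, typed the cells and kept the lineage. The deposited values are normalized expression, the natural log of 1 plus UMIs per 10000 (Seurat 4.0.3). Types are the authors' deposited annotation. From the deposited natural log values, UMIs came out whole within 0.001 in 100% of the barcodes of both libraries, and were summed per type and library in Python 3.11.15 (pandas 2.3.3, SciPy 1.17.1, NumPy 2.4.6). Levels carry exact Poisson, shares exact binomial and ratios exact conditional intervals. PCR and pooling mean that intervals cover counting error only. Scripts were tested on simulated data. Doublets were not removed in the values reported; Scrublet (scanpy 1.11.5) called 8 of 959 uninjured and 3 of 410 injured barcodes. The members and gene lists were chosen with earlier results of these data known. All members are named, with the list genes and the 3 genes most like each member. A combined table of both libraries was not used. Alternatives covered weighting, barcode filters, depth, thinning, TMM scaling, Malat1 share, doublets, single barcodes, immune RNA, fold and minimum. The Malat1 cuts of 0.25% and 1%, and the Malat1 cut joined with under 8000 UMIs, were chosen after seeing the data.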

Additional observations from a re-analysis of the deposited data

Results flagged for a closer look

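Olig1 moved in opposite directions in NFOs and oligodendrocytes. Its injured to uninjured ratio was 0.582 (0.486 to 0.699) in NFOs, from 1880.4 to 1094 CPM, and 1.17 (1.10 to 1.25) in oligodendrocytes, from 533 to 626 CPM. Each interval lay wholly on 1 side of 1, and with 1 library per condition the difference between the types was not tested. Under the alternatives the ratio ran from 0.358 to 0.660 in NFOs and from 0.698 to 1.21 in oligodendrocytes, so in oligodendrocytes it did not keep its direction. The NFO range holds no value for Malat1-rich barcodes alone, because too few were left. Olig1 levels overlapped between the libraries in Malat1-rich NFOs and did not in Malat1-poor ones. Where a barcode held no immune cell or macrophage marker, Olig1 overlapped between the libraries in both types. There it was at 1959 and 1996 CPM in NFOs, and at 535 CPM (511 to 559) and 523 CPM (426 to 634) in oligodendrocytes. NFOs with such a marker were at 1312 and 1025 CPM, with overlapping intervals. Oligodendrocytes with one were at 524 CPM (466 to 586) and 635 CPM (602 to 670), without overlap. The part of immune RNA was not tested.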

How the results depend on the processing

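The count of members past the fold moved with the weighting of barcodes and with depth. The shares of all genes past the fold under the same alternatives are not set beside these counts. The counts therefore do not tell whether the members moved more than other genes. For injured over uninjured NFOs, 2 members were lower, against 4 with each barcode counted equally, 1 after thinning to 500 UMIs, 4 without barcodes that held at least 3 immune markers and 0 at a fold of 2. The count of higher members there, 1 (Nkx6-2), became 0 under 8000 UMIs, after thinning and in Malat1-poor barcodes. The Nkx6-2 ratio was at least 1.86 under the 7 alternatives that gave a value, so it stayed past the fold. Under 8000 UMIs and in Malat1-poor barcodes the gene thus missed the minimum of UMIs for a test. Thinning gave no ratio, because uninjured NFOs then held no UMI of it. For oligodendrocytes, 1 member was lower, against 6 with equal weights, 4 under 8000 UMIs, 4 after thinning, 2 with TMM factors, 2 in Malat1-rich barcodes under 8000 UMIs, and 0 at a Malat1 minimum of 1% or a fold of 2. The count of higher members was 0, and 1 at a Malat1 minimum of 0.25%, 0.5% or 1% and in Malat1-poor barcodes. In Malat1-rich oligodendrocytes 1 member was higher, against 0 with equal weights, under 8000 UMIs, after thinning, with TMM factors and at a fold of 2. There 1 was lower, against 4 with equal weights, 3 after thinning, 2 under 8000 UMIs, 2 with TMM factors, and 0 with a strict barcode filter, at a Malat1 minimum of 1% or at a fold of 2. Between types, thinning changed the lower members from 2 to 0 for NFO over OPC, from 5 to 2 for uninjured oligodendrocytes over OPC, from 5 to 3 for uninjured and from 4 to 1 for injured oligodendrocytes over NFO. The higher members of injured oligodendrocytes over NFO went from 1 to 2 with equal weights and after thinning. The ratios of Olig1 (uninjured NFO over OPC) and Sox8 (uninjured oligodendrocytes over NFO) reversed to 1.02 and 1.12 with equal weights and to 1.11 and 1.42 after thinning. The Myrf ratio of injured oligodendrocytes over NFO, 1.496 and short of the fold, turned to 0.809 and 0.525 under the same alternatives. The injured minus uninjured share of oligodendrocytes with a UMI reversed to 4.55 percentage points for Olig2 and 7.85 for Sox8 at a minimum of 2 UMIs, and to 0.732 for Sox8 thinned to 1000 UMIs. Apart from the Nkx6-2 counts in NFOs, the cause of these moves was not tested.

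Of 265 recomputed injured to uninjured ratios of single members, 187 moved by less than their counting interval and 78 by more. Leaving out called doublets, the barcode with most UMIs or barcodes with at least 3 immune markers moved 0 of them. Barcodes with fewer immune markers stayed in. Some alternatives gave no value for NFOs because too few barcodes were left: the strict filter, which needed 500 genes and at most 10% mitochondrial UMIs, and each Malat1 minimum. Counting depth limits Zfp488, Nkx2-2, Sox6 in oligodendrocytes and the 17 injured OPCs. No paired analysis was possible because each condition was 1 library, and no replicate was left out for the same reason.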

Other observations

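Barcodes without a UMI of any of the 10 members were more common after injury. They made up 22 of 857 uninjured (2.57%) and 61 of 293 injured oligodendrocytes (20.8%), and 51 of the 61 were Malat1-poor. With barcodes thinned to 500 UMIs the shares were 21.5% and 37.2%, and within Malat1-rich oligodendrocytes 21.2% and 25%.

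Sox10 and Sox8 were found together in 276 of 857 uninjured and 84 of 293 injured oligodendrocytes. Sox8 was present in 82.4% of the injured barcodes with Sox10, at a median of 20724 UMIs, and in 11.5% of those without it, at a median of 776 UMIs. In the uninjured library the shares were 52.3% and 28.3%, at medians of 4988.5 and 1341 UMIs. The part of depth in these shares was not tested.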
